A study of Mus musculus with 39 samples.

Results

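Leydig cells are the steroid-making cells that lie between the seminiferous tubules of the testis. Here they were chosen by measured RNA from droplet single-cell libraries of whole mouse testis, 1 control and 1 conditional knockout (cKO). A cell passed with at least 3000 unique molecular identifiers (UMIs, each standing for 1 captured RNA molecule) and at most 20% of UMIs from mitochondrial genes. It counted as a Leydig cell when Insl3, Cyp17a1, Cyp11a1, Star and Hsd3b1 together made up at least 0.5% of its UMIs. These 5 genes are called the rule genes below, and their height in the chosen cells follows from the choice. The rule found 96 Leydig cells among 11181 passing control cells and 89 among 8444 passing cKO cells, 185 of 19625 in all.

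The study followed loss of Kdm6a (Utx), an X-linked gene for a demethylase of lysine 27 on histone H3, in male germ cells of the mouse. Control testes had the genotype Kdm6a fl/y without Cre, and cKO testes were Kdm6a fl/y with Ddx4-Cre. Both groups thus carry the floxed allele, and only cKO carries Cre, under the promoter of the germ-cell gene Ddx4. The labels name neither an age nor how many animals went into a library. With 1 library a genotype there is no test between genotypes, and intervals below are exact 95% intervals that cover counting error only. They leave out differences between animals and, for summed UMIs, differences between cells.

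Leydig cells answer luteinizing hormone, which they sense through LHCGR. The signal raises the delivery of cholesterol into mitochondria by STAR, where CYP11A1 cuts its side chain with electrons from ferredoxin. HSD3B enzymes, CYP17A1 and HSD17B3 then carry pregnenolone to testosterone, which maintains spermatogenesis. INSL3 is a peptide hormone of the same cells that guides testis descent. In the mouse, Hsd3b1 and Hsd3b6 are neighbouring members of 1 enzyme family, and both are known in Leydig cells.

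The stretch before the start site is shown for the 3 genes on which the results below turn, with sequences from RefSeq on GRCm38.p6, the patch release of mm10. Hsd3b1 and Hsd3b6 are shown because single Leydig cells differed in which of them they held, and Insl3 because its promoter lay in the authors' H3K27me3 regions of germ cells. Each line gives bases -250 to -1 from the start site, 5′ to 3′. In the first 2 sequences, capitals mark the longest runs that they have in common on the same strand. In Insl3, capitals mark AAGGTC, the core of the site bound by NR5A1 (steroidogenic factor), on either strand.
Hsd3b1 (chr3:98859795-98860044, minus strand): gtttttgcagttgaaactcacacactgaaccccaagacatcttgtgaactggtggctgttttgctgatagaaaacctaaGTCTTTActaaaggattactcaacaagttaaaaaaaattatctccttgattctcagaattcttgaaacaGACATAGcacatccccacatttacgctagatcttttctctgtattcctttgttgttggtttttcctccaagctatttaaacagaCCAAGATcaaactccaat
Hsd3b6 (chr3:98814444-98814693, minus strand): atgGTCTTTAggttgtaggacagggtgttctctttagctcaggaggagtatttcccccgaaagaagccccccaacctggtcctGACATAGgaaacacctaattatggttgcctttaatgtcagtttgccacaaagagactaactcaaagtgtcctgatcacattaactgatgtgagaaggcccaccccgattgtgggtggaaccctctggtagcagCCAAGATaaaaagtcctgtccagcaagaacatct
Insl3 (chr8:71689002-71689251, plus strand): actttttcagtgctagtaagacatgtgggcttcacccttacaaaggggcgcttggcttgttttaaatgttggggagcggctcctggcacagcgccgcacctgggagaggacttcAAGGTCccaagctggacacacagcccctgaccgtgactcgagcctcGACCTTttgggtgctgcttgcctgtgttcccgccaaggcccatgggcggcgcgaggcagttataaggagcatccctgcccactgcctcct

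The Hsd3b1 and Hsd3b6 stretches had no run in common longer than 7 bases, and 3 runs of that length. Such a run is common: 91.3% of 32851 RefSeq promoters had at least 1 run of that length in common with Hsd3b1. AAGGTC was found 2 times in Insl3 and not in the windows of Hsd3b1 and Hsd3b6. Over all promoters of that length, 10.6% held AAGGTC and 4.08% the longer AAGGTCA, which contains it. None of the 3 rule genes in the promoter table, Insl3 among them, held AAGGTCA. Of 10 other steroid synthesis genes in the promoter table, 1 held AAGGTC, the oestrogen sulfotransferase gene Sult1e1. Among 16 cholesterol genes, 2 did, Hmgcs1 and Dhcr7. On GRCm38 the Hsd3b6 gene spans bases 98805504 to 98814443 of chromosome 3 and Hsd3b1 bases 98842356 to 98859794, 27.9 kb further on.

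On the rule genes, the measure that chose the cells, few cells of either library lay near the threshold. Of passing cells, 99.1% in control and 98.8% in cKO had under 0.1% of UMIs from the rule genes, and only 4 and 9 cells lay between 0.1% and 0.5%. Just inside the threshold, the lowest control cells held 0.663%, 0.721% and 0.971%, and the lowest cKO cells 0.758%, 1.07% and 1.08%. Just outside it, the highest held 0.492%, 0.407% and 0.298% in control and 0.489%, 0.412% and 0.397% in cKO. The median Leydig cell had 2.25% in control and 2.31% in cKO, and the highest 4.03% and 3.55%. The plot of marker share against UMIs shows this same measure, so it is no separate evidence for a distinct class of cells.

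**Figure D1:**
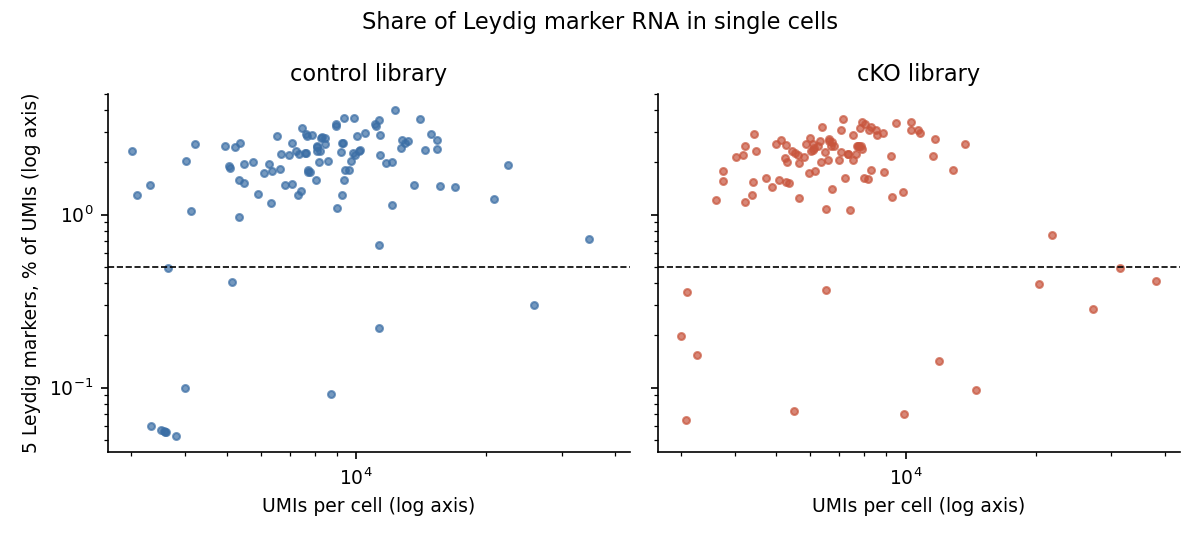
Each point is 1 passing cell with at least 0.05% of UMIs from the 5 rule genes (108 control and 102 cKO cells), with UMIs per cell and marker share on log axes; the dashed line is the threshold of 0.5%. The 96 control and 89 cKO cells above the line form a cloud around 2%, with 12 and 13 plotted cells below it.

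Leydig cells made up 0.859% of passing control cells (0.696 to 1.05) and 1.05% of cKO cells (0.847 to 1.30). These intervals overlap, and with mitochondrial genes limited to 10% the order turned, to 0.683% and 0.642%. With a minimum of 1000 UMIs, which 68491 and 28470 barcodes passed, the shares were 0.159% and 0.414%. The cKO Leydig cells were shallower, with a median of 6705 UMIs against 8313 in control, while the other passing cells had medians of 8632 and 8466. After each cell was thinned to 3000 UMIs, the median number of genes was 1522 in control and 1457 in cKO. Mitochondrial genes made up a median of 8.35% and 9.65% of Leydig UMIs, against 0.516% and 0.405% in the other cells. No Leydig barcode was found as a Leydig cell in both libraries. Over all passing cells the libraries had 30 barcodes in common, of which 3 were Leydig cells in either.

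RNA of other cells was present in them. The spermatid genes Tnp1, Tnp2, Prm1 and Prm2, which no Leydig cell is known to use, made up a median of 0.658% of UMIs in control and 0.509% in cKO. In free RNA, read from barcodes with at most 100 UMIs, they were 4.1% and 3.46%. They reached at least 5% in 4 control and 3 cKO Leydig cells, and the cKO cell with most UMIs (21893) held 20.9%. The control cell with most UMIs (34800) held 0.721% from the rule genes. No doublet caller was run, so such cells may hold more than 1 cell, which was not tested.

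Kdm6a itself was read first, to see whether its RNA was kept in Leydig cells, which are not germ cells. The tags counted come from the 3' end and may lie outside the deleted bases. In Leydig cells Kdm6a had 13 control and 7 cKO UMIs. As CPM (UMIs of a gene scaled to a fixed total) this was 14.6 and 11.0, a log2 ratio of cKO over control of -0.40 (-1.97 to 1.03). The interval spans both losses beyond 2-fold and gains, so the few UMIs do not settle whether Leydig cells kept the RNA. Cells with at least 0.5% of UMIs from meiotic genes such as Sycp1 and Sycp3, a spermatocyte gate, had 136 and 6 UMIs, or 23.1 and 1.65 CPM. Their log2 ratio was -3.81 (-5.28 to -2.65), an interval that does not reach that of the Leydig cells. The intervals of spermatid-rich cells, at -1.53 (-2.57 to -0.61), and of all other passing cells, at -1.93 (-2.37 to -1.52), do overlap it. Like gates for other somatic cells held few Kdm6a UMIs. That for Sertoli cells gave 6 and 13, for which the log2 ratio was 1.10 (-0.40 to 2.78). That for macrophages, of 13 and 8 cells, gave 3 and 1, and that for myoid cells none. In free RNA, Kdm6a stood at 4.30 CPM in control and 6.88 in cKO. With the free RNA profile subtracted, the Leydig log2 ratio was -0.61. Over all alternatives it ran from -0.97, with mitochondrial genes at most 10%, to -0.18, with a marker minimum of 2%.

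**Figure D2:**
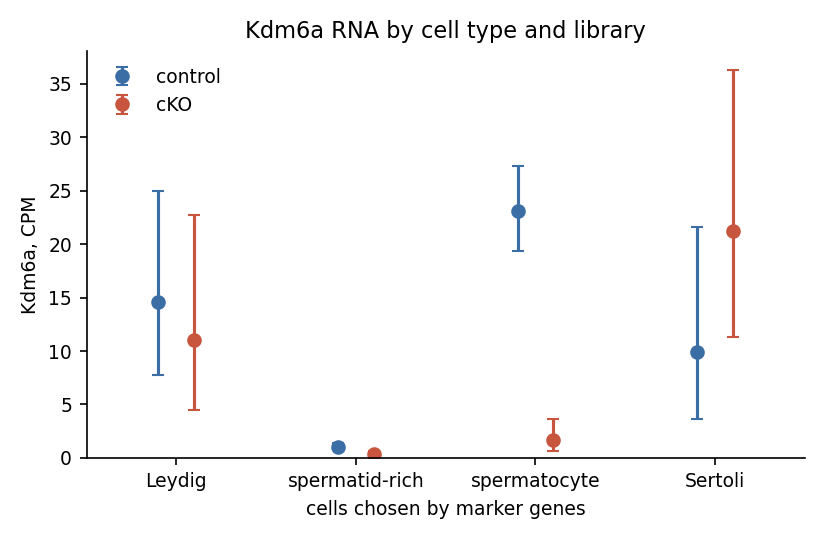
Kdm6a in CPM (vertical axis) in 4 sets of cells chosen by marker genes, control in blue and cKO in red; bars are exact 95% Poisson intervals. The spermatocyte points stand apart at 23.1 and 1.65 CPM, while the Leydig intervals overlap around 14.6 and 11.0 CPM.

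The other demethylases of the same mark were also low. Uty, the Y-linked relative of Kdm6a, had 18 and 11 UMIs in Leydig cells, or 20.2 and 17.4 CPM, against 1.63 and 1.46 CPM in all other passing cells. Kdm6b, a further demethylase, had 14 and 6 UMIs, at 15.7 and 9.46 CPM. Their log2 ratios of -0.22 (-1.45 to 0.94) and -0.73 (-2.40 to 0.74) do not part the libraries. Ezh2, which writes the mark, stood at 31.4 and 15.8 CPM, below the 113 and 110 CPM of the other cells. Ddx4, the gene whose promoter drives Cre, had 38.1 and 28.4 CPM in Leydig cells. That is under its level in free RNA, 122 and 108 CPM, and in the other cells, 183 and 153 CPM. Of the 12 genes in the list of H3K27 demethylases and their partners, 2 reached 50 UMIs, and neither passed 2-fold.

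The summed RNA of all Leydig cells held 891319 UMIs in control and 633985 in cKO. Over 4484 genes with at least 50 UMIs over both libraries, 24 (0.535%) were more than 2-fold higher in cKO and 189 (4.21%) more than 2-fold lower, with a median log2 ratio of -0.09. These shares are the background for every list below. They depend on the marker minimum: at 0.25%, which adds 3 control and 6 cKO cells, 114 of 4943 genes were higher and 140 lower. Thinned to 3000 UMIs a cell, 8 and 25 of 1694 genes passed 2-fold.

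The start of the steroid pathway was read through the rule genes and their partners. Star, which brings cholesterol to the inner mitochondrial membrane, had 784 CPM in control and 1233 CPM in cKO (log2 ratio 0.65, interval 0.50 to 0.80). Cyp11a1, the side-chain cleavage enzyme, had 2312 and 3416 CPM (log2 ratio 0.56, interval 0.48 to 0.65). Fdx1, the ferredoxin that feeds it electrons, had 935 and 1410 CPM (log2 ratio 0.59, interval 0.46 to 0.73). Star and Cyp11a1 helped to choose the cells, so of these 3 only Fdx1 is independent of the rule. The share of mitochondrial transcripts was also higher in the cKO Leydig cells, though not in the other cKO cells, and its part in these ratios was not tested. Fdxr, the reductase that loads ferredoxin, was level, with 385 and 366 CPM and a log2 ratio of -0.07 (-0.32 to 0.17).

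The later steps did not move together. Cyp17a1, which makes androgens from pregnanes, had 7889 and 8036 CPM (log2 ratio 0.03, interval -0.03 to 0.08). Hsd17b3, which makes testosterone, had 626 and 691 CPM (log2 ratio 0.14, interval -0.04 to 0.33). Por, the reductase that serves CYP17A1 in the endoplasmic reticulum, had 65.1 and 106 CPM (log2 ratio 0.70, interval 0.17 to 1.23). Sult1e1, which sulfates oestrogens, had 1088 and 678 CPM (log2 ratio -0.68, interval -0.85 to -0.52). Insl3 had 10195 and 9082 CPM (log2 ratio -0.17, interval -0.21 to -0.12). In single cells Insl3 ran from 747 to 19384 CPM in control, with a median of 9872, and from 2741 to 17762 in cKO, with a median of 9278, so the libraries overlap widely. Cyp19a1, the aromatase gene, and Hsd11b1 had 0 UMIs in both.

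Over the 12 genes of other steroid synthesis, 8 reached 50 UMIs, 5 of them above 0, none past 2-fold, with a median log2 ratio of 0.18 against -0.09 over all genes. Summed, the list had a log2 ratio of -0.07 (-0.14 to 0.00). The median and the sum differ in sign; the sum weights genes by UMIs, of which Hsd3b6 and Sult1e1 hold many. All 8 exceeded the other passing cells more than 4-fold in both libraries, as did 25.9% of the 4479 genes considered. Nothing is read from this count, since genes had to reach 50 UMIs within the chosen cells to be considered. The 5 rule genes summed to 21975 CPM in control and 22882 in cKO (log2 ratio 0.06, interval 0.03 to 0.09) that turned below 0 with other marker thresholds.

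**Figure D3:**
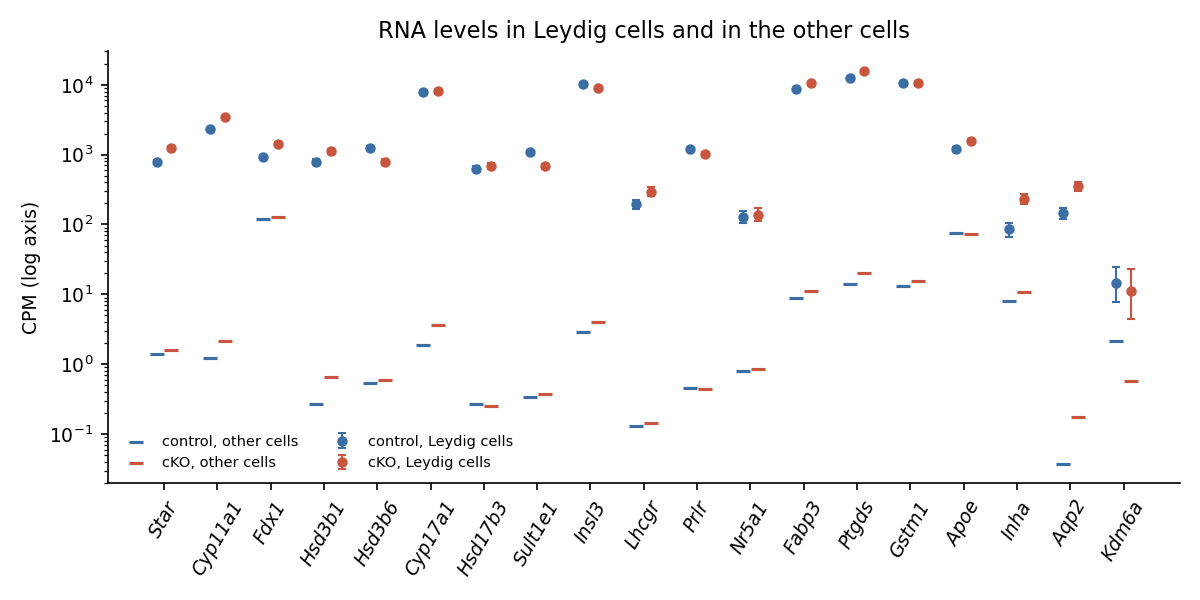
Levels of named genes in CPM (log axis) in Leydig cells (points, with exact 95% Poisson intervals) and in the other passing cells (dashes), control in blue and cKO in red. Star, Cyp11a1 and Fdx1 lie higher in cKO, Hsd3b6 and Sult1e1 lower, and the Leydig points stand above the dashes of the other cells for every gene shown.

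The neighbours Hsd3b1 and Hsd3b6 differed in opposite directions. Hsd3b1 had 794 CPM in control and 1114 in cKO (log2 ratio 0.49, interval 0.33 to 0.64). Hsd3b6 had 1250 and 782 CPM (log2 ratio -0.68, interval -0.83 to -0.52). Together they had 2044 and 1896 CPM. Hsd3b1 held 38.9% (36.6 to 41.1) of the pair's UMIs in control and 58.7% (55.9 to 61.5) in cKO. These intervals treat UMIs as separate draws. Most single cells held mostly 1 of the pair, so the intervals are too narrow for differences between cells. Hsd3b1 is a rule gene and Hsd3b6 is not. With Hsd3b1 left out of the rule, an alternative chosen after the data were seen, the other 4 genes chose the same 96 and 89 cells. Reads of such close relatives can be split between them in counting, and no source used here says how the authors' counter did so.

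Single cells held mostly one or the other. Of 88 control Leydig cells with at least 5 UMIs of the pair, Hsd3b1 made up at least 90% in 20 and at most 10% in 33, and lay between 30% and 70% in 16. Of 82 such cKO cells, 35 had at least 90%, 22 at most 10% and 10 lay between 30% and 70%. In each library both ends were thus filled and the middle thin. The median cell had 25.5% Hsd3b1 in control and 74.2% in cKO. Thinned to 3000 UMIs, 23 control cells had only Hsd3b1, 30 only Hsd3b6, 40 both and 3 neither. In cKO these numbers were 38, 24, 27 and 0.

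Across cells the thinned counts of the pair correlated with Pearson r of -0.37 in control (96 cells) and -0.55 in cKO (89 cells), as a description of cells of 1 library each. For 27 other pairs among Hsd3b1, Hsd3b6, Star, Hsd17b3, Sult1e1, Fdx1, Vcam1 and Cyp11a1, chosen after the pattern was seen, r ran from -0.25 to 0.35 in control and from -0.12 to 0.25 in cKO. Of the cells with 5 UMIs, 60.2% in control and 69.5% in cKO held at least 90% of one of the pair, against at most 35.6% (Hsd3b6 and Sult1e1) and 50% (Hsd3b6 and Cyp11a1) for the other pairs. In those pairs, the emptier of the 2 ends held at most 12 cells in control and 13 in cKO, both for Hsd3b6 and Sult1e1, against 20 and 22 for Hsd3b1 and Hsd3b6. Under 6 alternatives chosen after the data were seen, the balance of the pair was 37.2% to 40.5% in control and 57.4% to 60.6% in cKO. Of the 6, the rule without Hsd3b1 chose the same cells, so its value could not move. The balance is not reported for other marker minima, a lower mitochondrial limit, a lower depth minimum or free RNA subtraction. Those settings moved some of the other results.

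**Figure D4:**
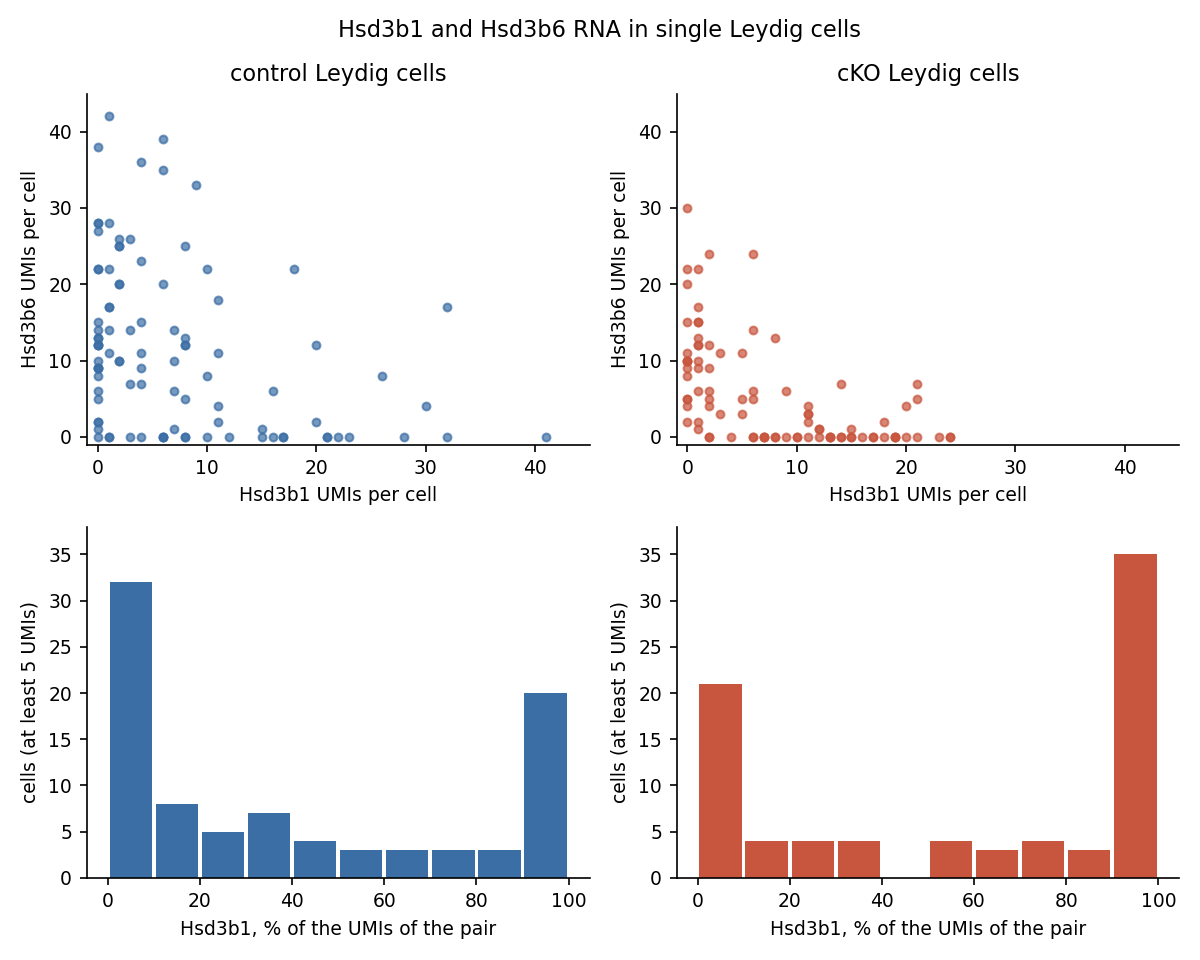
The upper panels plot Hsd3b6 against Hsd3b1 UMIs in each Leydig cell, and the lower panels count cells by the share of Hsd3b1 in the UMIs of the pair, for cells with at least 5. Most cells hug an axis; 32 control and 21 cKO cells have under 10% and 20 and 35 at least 90%.

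Other genes were ranked by their correlation with that balance in both libraries. In cells with mostly Hsd3b6, Igfbp7, which encodes a secreted binding protein, had 940 CPM (831 to 1060) in control and 896 (754 to 1056) in cKO. In cells with mostly Hsd3b1 it had 361 (283 to 454) and 755 (650 to 872). Prnp, the prion protein gene, had 126 and 158 CPM in the cells with mostly Hsd3b6 and 44.5 and 49.0 in those with mostly Hsd3b1. Of 2446 genes considered, these 2 had the most negative weaker correlation with Hsd3b1 minus Hsd3b6, -0.32 and -0.24, and were named for it. At the positive end, Nrip1 had 0.34 in control and 0.22 in cKO. Its level at the ends followed this only in cKO. There it had 77.5 CPM in cells with mostly Hsd3b1 and 31.5 in those with mostly Hsd3b6, from 19 and 5 UMIs. In control it had 69.3 and 76.9 CPM, from 14 and 22 UMIs. Sult1e1 had more RNA in cells with mostly Hsd3b1, at 1292 against 717 CPM in control and 800 against 404 in cKO. Star did not keep to one direction, with 406 CPM in cells with mostly Hsd3b1 against 1077 in those with mostly Hsd3b6, beside 1085 and 984 in cKO. Whether the libraries differ in this was not tested. The median UMIs of the 2 kinds of cell were 8996.5 and 8088 in control and 6624 and 6492 in cKO.

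Among receptors and factors, the receptor for luteinizing hormone was higher in cKO, and the others named differed less. Lhcgr, which encodes it, had 196 and 295 CPM (log2 ratio 0.59, interval 0.28 to 0.89), against 0.129 and 0.143 CPM in the other cells. Prlr, the prolactin receptor, had 1186 and 1011 CPM (log2 ratio -0.23, interval -0.37 to -0.09). Nr5a1, the steroidogenic factor, had 129 and 139 CPM (log2 ratio 0.11, interval -0.31 to 0.52). Of the list's 12 genes, 6 reached 50 UMIs, 4 of them above 0 and none past 2-fold, with a median log2 ratio of 0.11.

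Detection was also read after thinning. Among the rule genes, where it follows from the choice of cells, Insl3 had a UMI in 96 of 96 control and 89 of 89 cKO cells, and Star in 70.8% (60.7 to 79.7) and 82.0% (72.5 to 89.4). Outside the rule, Lhcgr had one in 45.8% and 52.8%, and Nr5a1 in 34.4% and 32.6%. Unthinned, these shares were 78.1% and 77.5% for Lhcgr and 65.6% and 59.6% for Nr5a1. In spermatid-rich cells, which should lack them, Insl3 had a UMI in 1.07% and 0.590% after thinning and Lhcgr in 0.0346% and 0.0491%. Median depths there were 6939 and 6431 UMIs, against 8313 and 6705 in Leydig cells.

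Cholesterol supply was slightly higher in cKO as a sum, with no gene past 2-fold. Summed, its 25 genes had 4809 CPM in control and 5405 in cKO (log2 ratio 0.17, interval 0.10 to 0.23), and 0.07 when cells were thinned. Of 21 genes with at least 50 UMIs, 14 were above 0, with a median of 0.17 against -0.09 over all genes. Apoe, a lipoprotein of the list, had 1223 and 1579 CPM, while free RNA held 1002 and 1213 CPM of it. It thus carries a large part of the summed difference, and the sum without it was not computed. With the free RNA profile subtracted, the summed log2 ratio was 0.20. Dhcr7, the last enzyme of one branch, had 48.2 and 85.2 CPM (log2 ratio 0.82, interval 0.22 to 1.43). Hmgcs1 had 411 and 375 CPM (log2 ratio -0.13, interval -0.37 to 0.11), and Msmo1 307 and 300 CPM, so the pathway did not move as a block. Scarb1, the receptor for high-density lipoprotein, had 84.1 and 112 CPM.

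Detoxifying and redox genes were abundant and close to level. Gstm1 and Gstm2, glutathione transferases, had log2 ratios of -0.01 (-0.06 to 0.03) and -0.09 (-0.16 to -0.03), at 10683 and 10604 CPM for Gstm1 and 5819 and 5450 CPM for Gstm2. Aldh1a1, which oxidizes retinal, had 2457 and 2304 CPM. All 15 genes reached 50 UMIs, 9 of them above 0 and none past 2-fold, with a median of 0.11 and a summed log2 ratio of 0.02 (-0.01 to 0.05).

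Of 10 other genes of adult Leydig cells, 7 reached 50 UMIs, and 1 of these passed 2-fold. Ptgds, a prostaglandin synthase, had 12333 CPM in control and 15732 in cKO (log2 ratio 0.35, interval 0.31 to 0.39). Fabp3, a fatty acid carrier, had 8639 and 10656 CPM (log2 ratio 0.30, interval 0.26 to 0.35). The tissue kallikrein Klk1b24 had 279 and 502 CPM (log2 ratio 0.84, interval 0.60 to 1.09), and its relative Klk1b21 had 397 and 522 CPM. Kallikrein genes are close copies, so reads may be split among them. The 7 log2 ratios ran from 0.12 to 1.45, with a median of 0.35 against -0.09 over all genes.

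The gene past 2-fold was Inha, the inhibin alpha subunit. It had 76 UMIs in 44 of 96 control cells and 148 in 60 of 89 cKO cells, or 85.3 and 233 CPM (log2 ratio 1.45, interval 1.04 to 1.87). One cKO cell held 23 of the UMIs, and no control cell more than 8. After thinning, 19.8% (12.4 to 29.2) of control and 42.7% (32.3 to 53.6) of cKO cells had an Inha UMI, against 2.23% and 2.36% of spermatid-rich cells. Inha is also a Sertoli cell gene. The Sertoli list summed to 2320 and 2500 CPM in Leydig cells, of which Clu alone gave 1562 and 1816. Summed, this list had a log2 ratio of 0.11 (0.01 to 0.20). Of its 4 genes with 50 UMIs, 2 lay above 0, with a median log2 ratio of -0.02. Clu and Cst9 had 0.22 and 0.15, and Ctsl and Aard -0.21 and -0.19. The part of Sertoli RNA in the Inha ratio was not tested. Fshr, a defining receptor of Sertoli cells, was at 0 in both. In single Leydig cells this list ran from 0.0403% to 1.28% of UMIs in control and from 0.0455% to 1.26% in cKO.

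By the fixed rule, the genes with the largest ratio over the other passing cells, rule genes left out, held several metabolic enzymes. Since the cells were chosen by RNA, these ratios are a description. Few of the other cells met a somatic gate. Those for Sertoli, macrophage and myoid cells held 104, 13 and 1 of 11085 in control. In cKO they held 90, 8 and 2 of 8355. The 15 genes were not set beside these gates. Ephx1, an epoxide hydrolase, had 1132 and 1514 CPM against 0.349 and 0.540 in the other cells. Bhmt, which remethylates homocysteine, had 2433 and 2095 CPM against 0.737 and 0.785. Agt, angiotensinogen, had 3208 and 3595 CPM, and Akr1cl, an aldo-keto reductase, 4275 and 4584. Ces1d, a carboxylesterase, had 368 and 331 CPM. The water channel gene Aqp2 was the only 1 of the 15 past 2-fold between libraries, with 145 and 350 CPM and a log2 ratio of 1.27 (0.96 to 1.60), in 54 of 96 control and 65 of 89 cKO cells. Serpina3c, Serpina3g, Serpinb1a, Tmem176a and Kcnk1 were also among the 15.

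The 8 highest ratios came from genes with at most 148 UMIs in a library. Etnk2, an ethanolamine kinase, had 17 and 42 UMIs (log2 ratio 1.80, interval 0.95 to 2.70). Slc38a1, an amino acid transporter, had 31 and 69 UMIs (log2 ratio 1.65, interval 1.01 to 2.31), with 12 in 1 cKO cell. Kcnk3, a potassium channel, and Tcaf1 came next, at 1.61 and 1.59. Igf1r, the receptor for insulin-like growth factor, had 50 UMIs in 36 control cells and 98 in 53 cKO cells (log2 ratio 1.46, interval 0.96 to 1.98). Inha, described above, followed at 1.45, then Plxnd1 and Pakap at 1.42 and 1.35.

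Among the 8 lowest ratios, Gm8251 had 104 UMIs in control and 7 in cKO (log2 ratio -3.40, interval -4.75 to -2.31), and Tcfl5, a factor of spermatocytes and spermatids, 70 and 13 UMIs (log2 ratio -1.94, interval -2.92 to -1.07). Banf2, Dnajb7, Cylc1, Pigf, Sox30 and Akap3 lay between -2.86 and -1.81. All 8 had less RNA in the cKO Leydig cells than in free RNA there, for example 20.5 against 183 CPM for Tcfl5 and 37.9 against 143 for Akap3. In control, Gm8251 stood above free RNA, at 117 against 74.4 CPM, with 22 of its 104 UMIs in 1 cell. Gm8251 was also lower in cKO in the other passing cells, at 152 and 71.8 CPM, and in free RNA, at 74.4 and 44.3 CPM. The others of the 8 lay below free RNA in control too, for example Tcfl5 at 78.5 against 199 CPM and Akap3 at 132 against 186. Single control cells held 11 of 51 Banf2 and 12 of 54 Pigf UMIs. Of the 5 round spermatid genes with 50 UMIs, 3 were past 2-fold lower (Spaca1, Tssk1 and Acr), with a median of -1.03 where 4.21% of all genes passed. The list stood at 484 CPM in control Leydig cells and 301 in cKO, and at 1356 and 1180 CPM in free RNA. The top control cell held 18.8% of its control UMIs and the top cKO cell 16.2% of its cKO UMIs. The elongating spermatid list had a summed log2 ratio of 0.12 (0.08 to 0.16), and 1 cKO cell held 47.9% of its cKO UMIs. Which share of these genes' RNA came from the Leydig cells themselves was not tested.

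Immediate early and stress genes, which cell dissociation is known to raise, lay mostly below 0, and none passed 2-fold. Fosb, an immediate early gene, had 246 and 129 CPM (log2 ratio -0.93, interval -1.31 to -0.55), and Fos 401 and 312 CPM (log2 ratio -0.36, interval -0.62 to -0.10). Of 11 genes with 50 UMIs, 1 was above 0, with a median of -0.36 and a summed log2 ratio of -0.38 (-0.48 to -0.29). Jun, Junb and Btg2 had log2 ratios of -0.26, -0.25 and -0.62.

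Genes of Leydig progenitors were scarce. Pdgfra had 36 and 23 UMIs, Tcf21 7 and 10, and Nes and Gli1 none. Ptch1, the hedgehog receptor, had 51 UMIs in 34 control cells and 11 in 8 cKO cells, or 57.2 and 17.4 CPM (log2 ratio -1.72, interval -2.81 to -0.76). Of the 8 genes of the list, 2 reached 50 UMIs, Ptch1 and Pdgfra, and of these Ptch1 passed 2-fold. Cell cycle genes stood at 140 and 155 CPM in all, below free RNA at 418 and 445 CPM.

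Macrophage and endothelial genes had UMIs in few Leydig cells, and genes listed as stromal in many. The macrophage list had 125 UMIs in 10 of 96 control cells, 57 of them in 1 cell, and 16 UMIs in 6 of 89 cKO cells. Endothelial genes had 5 UMIs in control and 23 in cKO, 18 of the latter in 1 cell. Peritubular myoid genes had 50 UMIs in 23 control cells and 18 in 7 cKO cells, mostly Actg2 (48 and 14), with Myh11 and Cnn1 at 0. Actg2 does not single out myoid cells here. It had 53.9 and 22.1 CPM in Leydig cells, below the other passing cells (142 and 145) and free RNA (117 and 94.7). Of its 14 cKO UMIs, 10 lay in 1 cell. Stromal genes had 107 UMIs in 53 control cells and 108 in 40 cKO cells, led by Dcn and Pdgfra. Pdgfra and Tcf21 of this list are also counted among the progenitor genes above. Pdgfra had 40.4 and 36.3 CPM in Leydig cells, against 0.555 and 0.897 in free RNA. Whether the RNA of this list came from other cells was not tested. Among spermatogonial genes, Kit, a receptor also known in Leydig cells, had 276 and 132 UMIs, or 310 and 208 CPM, against 5.00 and 5.53 in free RNA. Zbtb16, a factor of spermatogonial stem cells, had 23 UMIs in 17 control cells and 1 in cKO. That was 25.8 and 1.58 CPM, against 1.25 and 0.748 in free RNA and 1.66 and 1.65 in the other passing cells. Gfra1 and Stra8 of the same list were at 0 in both libraries. Where the Zbtb16 RNA came from was not tested.

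**Figure D5:**
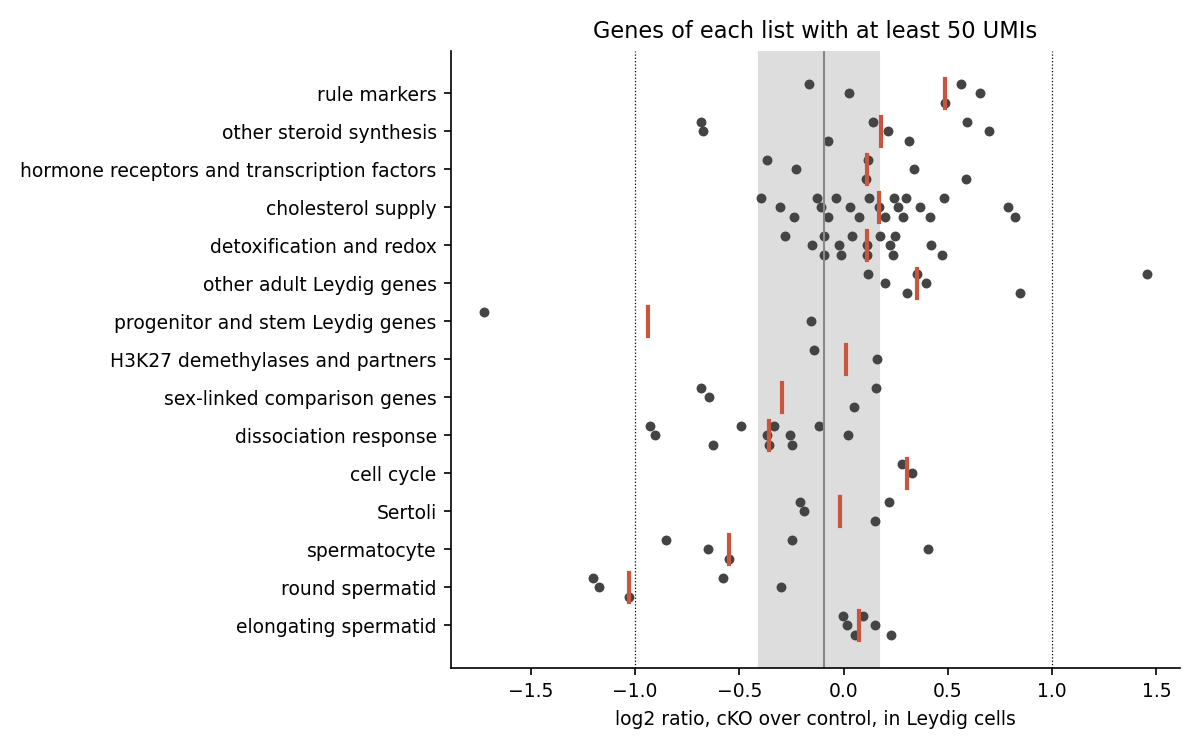
Each point is 1 gene with at least 50 UMIs, placed by its log2 ratio of cKO over control in Leydig cells and grouped by list; red bars are list medians, the grey band the interquartile range of all 4484 genes, the grey line their median of -0.09, and dotted lines mark 2-fold. The steroid, cholesterol, redox and other adult Leydig lists have medians from 0.11 to 0.35, while the 11 dissociation and 5 round spermatid genes have medians of -0.36 and -1.03.

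Genes on the X and Y chromosomes were set beside Kdm6a. Ddx3x and Eif2s3x had log2 ratios of 0.05 (-0.46 to 0.56) and 0.16 (-0.70 to 1.00), and the Y-linked Ddx3y and Eif2s3y -0.65 (-1.27 to -0.05) and -0.68 (-1.40 to -0.01). Of the 4, none passed 2-fold. Clasrp and Map4k1, genes of chromosome 7 that differ between the whole libraries, had log2 ratios of -2.27 (-3.99 to -0.91) and 0.87 (-0.43 to 2.22). Both lay under their free RNA in Leydig cells, at 38.1 and 7.89 CPM for Clasrp where free RNA held 161 and 50.0. Npas1, Gm32772, Col9a3 and Hoga1 had at most 2 UMIs in either library.

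The ratio of variance to mean over single Leydig cells was far above its median for a few RNAs. Over 370 genes with a thinned mean of at least 1 UMI in both libraries, the ratio of variance to mean had a median of 1.20 in control and 1.21 in cKO. It was 45.6 and 57.9 for Malat1, a nuclear noncoding RNA that ran from 331 to 128093 CPM in control cells. Leaving out spermatid genes, the next were Ptgds (13.5 and 34.3), Lcn2 (16.8 and 12.5) and Gm42418 (40.4 and 11.0). Cyp17a1 had 6.32 and 4.55, at thinned means of 24.0 and 23.6 UMIs, and Insl3 5.13 and 4.20, at 31.2 and 28.2. Hsd3b1 had 4.1 and 3.65 at means of 2.58 and 3.54, and Hsd17b3 1.79 and 1.36 at 1.99 and 1.84. Sod1, a housekeeping redox enzyme, had 0.953 and 0.974 at 1.58 and 1.67. The ratio can rise with the mean, so it does not rank genes of unlike means by how much cells vary. Across cells, r between Insl3 and 7 other Leydig genes ran from -0.18 (Hsd3b1) to 0.48 (Fabp3) in control and from -0.01 (Hsd17b3) to 0.30 (Cyp11a1) in cKO; 4 of the 7 are rule genes.

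Chromatin was measured by the authors only in germ cells, the cKIT+ spermatogonia, with 2 control and 3 cKO libraries for ATAC-seq and for H3K27me3 each. These values therefore describe promoters in another cell type, and RNA of those cells was not set beside them. A promoter window of 250 bases before to 50 after the start counted as covered with 1 base of overlap. The Insl3 window lay in H3K27me3 regions of 2 of 2 control and 3 of 3 cKO libraries, as did that of Inha; among all 27025 genes in the table, 1023 (3.79%) did. Of 9 other adult Leydig genes, 3 were covered in both controls, against 8.46% of all genes. These were Inha, Fabp3 and Inhbb, the last 2 also in 2 of 3 cKO libraries. Of the steroid synthesis, cholesterol and redox genes in the promoter table, the rule genes aside, none was covered by H3K27me3 in any library. The share of all genes covered in any library was not counted, so nothing is read from this. Hsd3b1 had neither H3K27me3 nor an ATAC-seq peak in any of the 10 libraries, and Hsd3b6 only an ATAC-seq peak in 1 cKO library. Of 16 cholesterol genes, 15 lay in an ATAC-seq peak in all 5 libraries, against 23.7% of all genes, and of 10 other steroid synthesis genes 4 did. The window of Cyp11a1 was covered by H3K27me3 in 0 of 2 control and 2 of 3 cKO libraries. The share of all genes with this pattern was not counted, so nothing is read from it. Over all genes, 8.46% were covered in both controls and 4.03% in all 3 cKO libraries.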

How the data were processed

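The authors deposited raw UMI counts (whole-number count per gene and barcode) from droplet libraries; these matrices list every barcode of the kit and were written by Cell Ranger, per the file headers; the submitters' processing notes also name Seurat 4.1.0 and mm10. The authors' ATAC-seq lists carry a fold enrichment (a ratio over background) per peak, and their H3K27me3 lists a summed signal per region; only the region bounds were used here. Bulk RNA was not used here. Depth was 229882646 UMIs in control and 172368722 in cKO.

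UMIs were summed over Leydig cells in each library and divided by their total. Log2 ratios carry exact conditional intervals, CPM exact Poisson and shares exact Clopper-Pearson intervals. A gene was called past 2-fold with at least 50 UMIs over both libraries. Thinning drew 3000 UMIs per cell without replacement. No doublet caller was run and no free RNA was removed, except as an alternative. The step was tested on simulated data. Tools were Python 3.11, NumPy and SciPy.

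The members and gene lists were chosen with earlier results of these data known. Named genes are the rule genes, the 4 highest members of each list with 20 UMIs and members past 2-fold, the 8 highest and 8 lowest ratios, and the 15 genes with the largest ratio over other cells; other names were chosen after their values were seen. Promoters matched by symbol for 3 of 5 rule genes. Some list members are not reported here.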

Additional observations from a re-analysis of the deposited data

How the results depend on the processing

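No paired analysis was possible because each genotype has 1 library, and none could be left out. Of the alternative values, 25 moved, 2 reversed and 59 stayed within the interval of the main value or within 1.5 times its count. Lowering the depth minimum to 1000 UMIs gave Leydig shares of 0.159% (control) and 0.414% (cKO), and the higher depth minimum gave 1.09% in control. A marker minimum of 2% gave 0.528% and 0.722%, and mitochondrial genes at most 10% gave 0.683% and 0.642%, a different order. The summed rule genes turned to a log2 ratio of -0.11 at a marker minimum of 0.25% and -0.013 at 2%, and were 0.15 after free RNA was subtracted. Other steroid synthesis moved to -0.20 at both marker minima, 0.032 at the lower mitochondrial limit and 0.013 after subtraction. Cholesterol supply moved to 0.046 at 0.25%, 0.087 at 2%, 0.10 with cells weighted equally and 0.072 with cells thinned. Genes past 2-fold higher numbered 114 at 0.25%, 39 after subtraction, 8 thinned, 122 with at least 20 UMIs and 3 with at least 200. Genes past 2-fold lower numbered 72 at 2%, 25 thinned, 674 and 7. Settings that left out cells of marker share under 1%, and all those for the Hsd3b1 share, were chosen after the data were seen. The marker minimum of 0.25% added 3 control and 6 cKO cells. Genes considered numbered 4484 in the main setting, 4943 at 0.25%, 2886 at 2% and 2786 after subtraction. They numbered 1694 thinned, 7925 with at least 20 UMIs and 1143 with at least 200, so the counts past 2-fold have unlike totals. Other causes were not tested. Depth limits what Kdm6a can show, with 13 and 7 UMIs.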
